A study of Mus musculus with 6 samples.

Results

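The enzymes that make prostaglandins and leukotrienes were followed in the adipose tissue of obese and lean mice through 10 genes: Ptgs1, Ptgs2, Ptges, Ptgds, Hpgds, Ptgis, Alox5, Alox5ap, Ltc4s and Lta4h. Their reporters were found by gene symbol, Hpgds also by its older symbol Ptgds2. All 10 were measured, by 13 of the 39507 reporters (probes) on the array, and they stand among 25729 genes that could be tested. Each had 1 reporter except Alox5ap, which had 4.

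Both families of lipid mediator start from arachidonic acid, which phospholipases release from membranes. The cyclooxygenases Ptgs1 and Ptgs2 turn it into prostaglandin H, from which terminal synthases make prostaglandins E and D, prostacyclin or thromboxane. The lipoxygenase Alox5, helped by its membrane partner Alox5ap, turns it into leukotriene A, from which Lta4h makes the neutrophil attractant leukotriene B and Ltc4s makes the cysteinyl leukotrienes. In adipose tissue prostaglandin E is known to restrain lipolysis in fat cells, while most leukotriene enzymes are known from macrophages, mast cells and granulocytes.

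RNA of 3 ob/ob and 3 ob/+ samples of fat labelled eWAT, from mice 9 weeks old, was read on 6 two-colour arrays, 1 per sample. In ob/ob mice both copies of the leptin gene Lep are mutant, so they make no working leptin and become obese, while lean ob/+ controls have 1 mutant and 1 normal copy. The genetic background was C57BLKS/J, given in the labels on the channel of the reference. On every array the sample was labelled with Cy5 and set against pooled ob/+ RNA in the Cy3 channel, with no dye swap. The header of the table puts 3 samples in the pool, and whether these are the 3 ob/+ samples measured here is not stated. For Ptgds and Ptgs2, uneven among the lean samples, mean ob/+ intensity was 2.26 and 0.377. The pool read 1.85 to 2.36 and 0.34 to 0.43. If the samples are the same, each lean ratio sets a sample against a pool that contains it. The labels do not say that each sample came from a separate animal, so each p-value reflects only how these samples vary among themselves, which may be technical. Intensities are in the authors' linear units, and a log2 ratio is log2 of the sample over the pool on the same array. Median sample intensity was 0.11 to 0.15 across arrays, and 97.45% of the intensities came in steps of 0.01, so dim genes were read coarsely. Replicate numbers come with the ratios only, so intensities are given by group. Bulk tissue was measured, and fewer cells of a type and less RNA per cell cannot be told apart.

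The tissue label was checked against cell type markers. The 7 measured of 8 adipocyte markers had summed intensities of 85.2 to 94.0 on the ob/+ arrays and 50.0 to 63.3 on the ob/ob arrays. A list of 13 markers of epididymal and ductal epithelium, which is not fat, summed to 28.1 to 64.5 on the ob/+ arrays and to 1.37 to 1.87 on the ob/ob arrays. Lean replicate 2 stood apart from the other lean samples for several genes, Ptgs2 and Ptgds among them. Among the obese samples replicate 1 had the smallest ratios for the macrophage markers that were higher in ob/ob. For members whose call changed when either sample was left out, the outcome of that fit is given below.

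Of the 10 genes, Alox5ap and Ltc4s rose in ob/ob fat and Ptgs1 fell, while the other 7 did not pass the test (limma, Benjamini-Hochberg adjusted p under 0.05 over all genes tested). Over all genes 26.6% passed, 13.4% higher and 13.2% lower in ob/ob, so 3 of 10 is close to the background. Quantile normalization of the ratios between arrays left 0 of the 10 past the threshold in limma (1 at an unadjusted p under 0.05), with 719 of all genes called. At an unadjusted p under 0.05, 7 of the 10 passed, against 37.5% of all genes. The ratios of the ob/ob and ob/+ samples did not overlap for 7 genes, namely Alox5ap, Hpgds and Ltc4s on the higher side and Ptgs1, Ptgs2, Ptgds and Ptgis on the lower side. Such separation was seen in 40.1% of all genes, 20.2% higher and 19.9% lower. The median log2 difference, ob/ob minus ob/+, was -0.35 over the 10 genes and 0.00 over all genes. The 2 genes Alox5 and Hpgds had mean intensities of 0.1 or less, where the rounding alone is a sizeable part of the signal. Among the other 8, 3 passed, against 35.1% of all genes above that intensity.

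**Figure D1:**
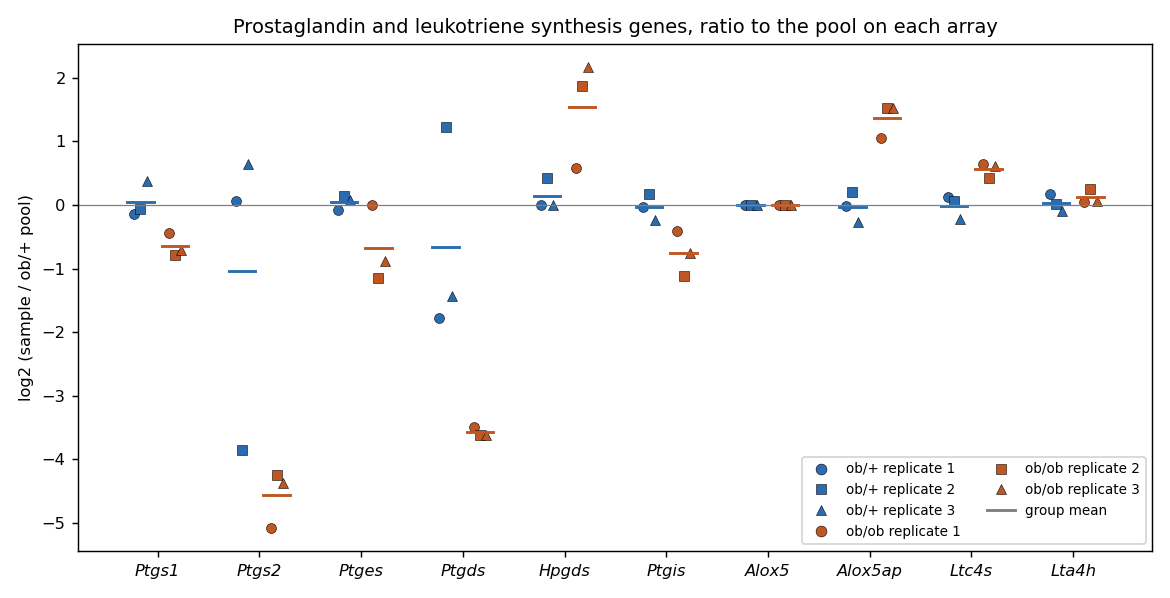
Log2 ratio of sample over ob/+ pool (vertical axis) for each of the 10 genes, with 1 point per replicate and a bar at the mean of each group (3 ob/+, 3 ob/ob). Ptgs2 and Ptgds show 1 ob/+ sample far from the other lean samples, while the ob/ob samples lie close together; Alox5ap and Ltc4s lie above the ob/+ samples and Ptgs1 below them.

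Promoter sequences were available for 8 of the 10 genes from RefSeq on build GRCm38.p6, and not used here for Ptgis and Alox5ap. Each window runs from 250 bases before the annotated start to 50 after it, and 5 short motifs were searched on both strands in all 32851 promoters of the table. The windows of both cyclooxygenases, of Ptgds and of Ltc4s are shown because these genes carry most of the results below. Each is written 5′ to 3′ on the strand of its gene, with motif matches in capitals.
Ptgs1, chr2:36230176-36230475, plus strand: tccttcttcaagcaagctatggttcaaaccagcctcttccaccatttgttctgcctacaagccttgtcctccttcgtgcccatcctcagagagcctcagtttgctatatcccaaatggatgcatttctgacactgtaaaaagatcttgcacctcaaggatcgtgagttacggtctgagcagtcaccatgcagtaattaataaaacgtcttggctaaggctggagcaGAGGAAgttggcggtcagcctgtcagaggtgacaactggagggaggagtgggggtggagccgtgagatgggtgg
Ptgs2, chr1:150099781-150100080, plus strand: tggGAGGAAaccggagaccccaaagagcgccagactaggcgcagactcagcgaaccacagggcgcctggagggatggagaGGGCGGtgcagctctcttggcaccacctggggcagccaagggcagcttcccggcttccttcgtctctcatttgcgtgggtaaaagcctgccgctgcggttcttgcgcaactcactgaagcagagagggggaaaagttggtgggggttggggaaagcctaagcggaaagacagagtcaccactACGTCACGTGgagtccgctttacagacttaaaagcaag
Ptgds, chr2:25469700-25469999, minus strand: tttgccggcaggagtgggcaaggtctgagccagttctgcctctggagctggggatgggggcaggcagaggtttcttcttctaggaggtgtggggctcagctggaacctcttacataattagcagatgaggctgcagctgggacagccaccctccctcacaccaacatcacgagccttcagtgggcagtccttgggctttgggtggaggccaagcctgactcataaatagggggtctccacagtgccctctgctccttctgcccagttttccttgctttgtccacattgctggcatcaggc
Ltc4s, chr11:50238483-50238782, minus strand: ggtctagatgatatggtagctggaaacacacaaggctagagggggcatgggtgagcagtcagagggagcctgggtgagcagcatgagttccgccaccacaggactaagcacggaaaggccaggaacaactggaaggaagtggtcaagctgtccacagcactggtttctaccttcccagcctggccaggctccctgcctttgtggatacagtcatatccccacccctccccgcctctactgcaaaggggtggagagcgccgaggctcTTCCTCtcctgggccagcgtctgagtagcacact

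In the Ptgs2 window the cyclic AMP response element core ACGTCA at bases 263 to 268 overlaps the E-box CACGTG at bases 267 to 272. These motifs occur in 7.51% and 7.15% of all promoters and in no other window of the members. Ptgs2 also holds the GC box GGGCGG, found in 35.7% of promoters and in those of Ptges and Alox5 too. The PU box GAGGAA, present in 28.3% of promoters, was found in 7 of the 8 windows: those of Ptgs1, Ptgs2, Ptges, Hpgds, Alox5, Ltc4s and Lta4h. In the Ltc4s window it lies on the opposite strand and reads TTCCTC. The TATA box TATAAA, in 13.6% of promoters, was in none of the 8, and the Ptgds window held none of the 5 motifs. A match describes letters in a window and says nothing of a factor bound there.

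Ptgs1, the constitutive cyclooxygenase, was the member that fell. Its sample intensity was 5.79, 6.02 and 7.63 on the 3 ob/+ arrays and 4.57, 3.83 and 3.84 on the 3 ob/ob arrays, with the pool between 5.85 and 6.56. The log2 ratios were -0.15, -0.07 and 0.38 in ob/+ replicates 1 to 3 and -0.44, -0.78 and -0.71 in ob/ob replicates 1 to 3. All 3 obese samples lay below all 3 lean ones, and lean replicate 3 was the highest. The log2 difference was -0.70 ± 0.18 (SE, n = 3 and 3, 95% interval -1.16 to -0.23, adjusted p = 0.0472), a 1.62-fold lower level. The call lies at the threshold: it was lost when any 1 of the 6 arrays was left out (adjusted p from 0.0677 to 0.146), and the sample channel without the pool gave -0.40 (adjusted p = 0.103).

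Ptgs2, the inducible cyclooxygenase that responds to inflammatory signals, was lowest in obese fat but not uniform in lean fat. Its intensity was 0.44, 0.03 and 0.66 on the ob/+ arrays and 0.01, 0.02 and 0.02 on the ob/ob arrays, against 0.34 to 0.43 in the pool. The log2 ratios were 0.07, -3.85 and 0.65 in ob/+ replicates 1 to 3, and -5.08, -4.25 and -4.38 in ob/ob replicates 1 to 3. Lean replicate 2 therefore sat next to the obese samples, although the groups did not overlap, and the other lean samples were near or above the pool. The SD of the lean ratios was 2.44, which only 18 of the 25729 genes (0.07%) exceeded.

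The log2 difference of Ptgs2 was -3.54 ± 1.30 (95% interval -6.91 to -0.16), the largest in size among the 10 genes, and did not pass the test (adjusted p = 0.119). It stood at 11.6-fold in size, and rounding of the intensities to 0.01 allows -4.26 to -2.99. Without lean replicate 2 the difference was -4.93 and passed (adjusted p = 0.00988), while the other 5 fits with an array left out did not (from -3.69 to -2.68, adjusted p from 0.228 to 0.286). With the sample channel alone it was -3.43 and passed (adjusted p = 0.0422), and with quantile normalization it was -1.84 and did not (adjusted p = 0.646).

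The genes downstream of the cyclooxygenases included the synthases of prostaglandin E, prostacyclin and prostaglandin D. Ptges, the inducible microsomal prostaglandin E synthase that is coupled to Ptgs2, had intensities of 0.35, 0.44 and 0.38 on the ob/+ arrays and 0.37, 0.14 and 0.19 on the ob/ob arrays. Its log2 ratios were -0.08, 0.14 and 0.08 in ob/+ replicates 1 to 3 and 0.00, -1.15 and -0.88 in ob/ob replicates 1 to 3. Obese replicate 1 lay within the lean range and the other obese samples below it, so the groups overlapped. The log2 difference was -0.72 ± 0.32 (95% interval -1.55 to 0.11, adjusted p = 0.179). Without obese replicate 1 it was -1.06 and passed the test (adjusted p = 0.0135), which the other 5 fits with an array left out did not (adjusted p from 0.283 to 0.376).

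Ptgis, the prostacyclin synthase known from endothelium and stromal cells, had intensities of 0.54, 0.60 and 0.41 on the ob/+ arrays and 0.40, 0.24 and 0.32 on the ob/ob arrays. Its log2 ratios were -0.03, 0.18 and -0.23 in ob/+ replicates 1 to 3 and -0.41, -1.12 and -0.75 in ob/ob replicates 1 to 3. The groups did not overlap, with lean replicate 3 and obese replicate 1 nearest to each other. The log2 difference was -0.73 ± 0.22 (95% interval -1.29 to -0.18, adjusted p = 0.0667), a 1.66-fold lower level that did not pass the test. Without obese replicate 1 it was -0.91 and passed (adjusted p = 0.0448), while the other 5 fits with an array left out did not (from -0.83 to -0.55, adjusted p from 0.112 to 0.176). It passed when genes of mean intensity 0.1 or less were left out (adjusted p = 0.0232), and in the sample channel alone it was -0.44 and did not (adjusted p = 0.223).

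The 2 prostaglandin D synthases are unrelated proteins, and their differences had opposite signs, neither past the threshold. Ptgds, the secreted lipocalin-type enzyme known from brain, heart and the male genital tract, had intensities of 0.58, 5.49 and 0.71 on the ob/+ arrays and 0.17, 0.15 and 0.16 on the ob/ob arrays. The pool stood at 1.85 to 2.36. Its log2 ratios were -1.78, 1.22 and -1.43 in ob/+ replicates 1 to 3 and -3.49, -3.62 and -3.62 in ob/ob replicates 1 to 3. Lean replicate 2 was the only sample above the pool, the other lean samples were below it, and the obese samples were lowest and almost identical.

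The log2 difference of Ptgds was -2.92 ± 0.86 (95% interval -5.15 to -0.69, adjusted p = 0.0675), or 7.56-fold in size. The lean SD of 1.64 was exceeded by 53 genes (0.206%). Without lean replicate 2 the difference was smaller, -1.97, and passed the test (adjusted p = 0.00882), while the other 5 fits with an array left out gave -3.47 to -2.89 and did not (adjusted p from 0.0833 to 0.181). It was -2.78 and passed in the sample channel alone (adjusted p = 0.0384), and -1.08 with quantile normalization, where it did not (adjusted p = 0.711). Lean replicate 2, high for Ptgds, was thus the same sample that was low for Ptgs2.

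Hpgds, the hematopoietic enzyme of mast cells, macrophages and some T cells, was dim. Its intensities were 0.03, 0.04 and 0.04 on the ob/+ arrays and 0.06, 0.11 and 0.09 on the ob/ob arrays, with the pool at 0.02 to 0.04. The log2 ratios were 0.00, 0.42 and 0.00 in ob/+ replicates 1 to 3 and 0.58, 1.87 and 2.17 in ob/ob replicates 1 to 3. The obese samples were higher without overlap, obese replicate 1 by the least. The log2 difference was 1.40 ± 0.46 (95% interval 0.21 to 2.60, adjusted p = 0.0891), and rounding allows 0.65 to 2.20. It passed at 1.88 without obese replicate 1 (adjusted p = 0.0113) and at 1.47 in the sample channel alone (adjusted p = 0.00669). The other 5 fits with an array left out gave 1.09 to 1.54 and did not pass (adjusted p from 0.148 to 0.229), nor did quantile normalization at 0.84 (adjusted p = 0.326).

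**Figure D2:**
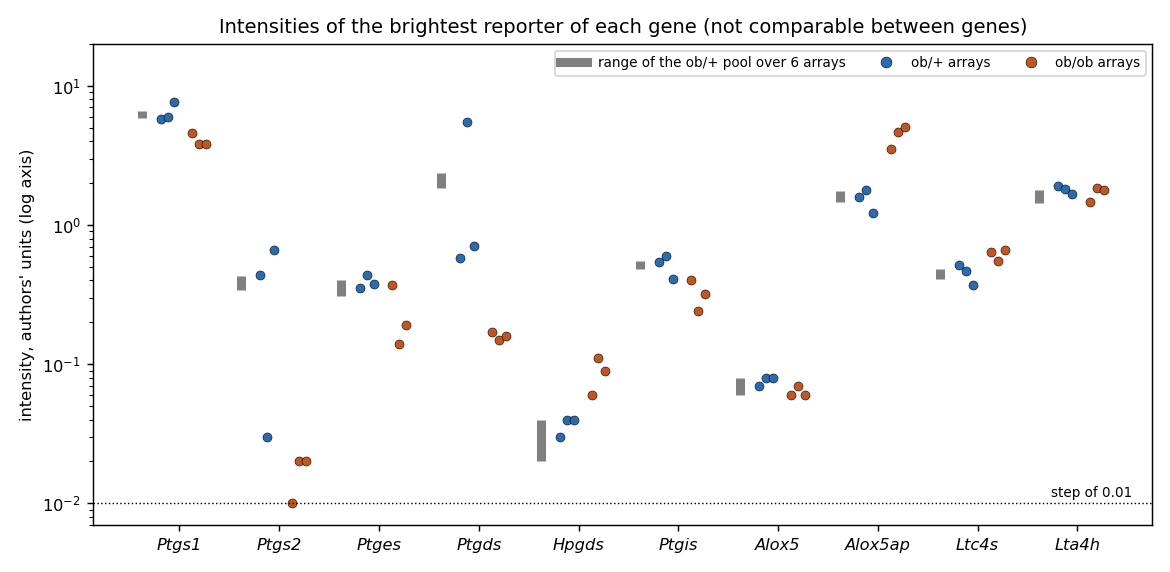
Sample intensity in the authors' units on a log axis for each of the 10 genes, with 1 point per array (3 ob/+, 3 ob/ob) and the range of the pool drawn as a vertical bar. Ptgds reaches 5.49 on 1 ob/+ array against 0.15 to 0.17 in ob/ob, and Ptgs2 lies at 0.01 to 0.02 on the ob/ob arrays, at the rounding step of 0.01, with Hpgds and Alox5 also low; levels of different genes come from different reporters and are not comparable.

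On the leukotriene side the partner protein of the lipoxygenase changed and the lipoxygenase itself showed no measurable difference. Alox5, the enzyme itself, had intensities of 0.07, 0.08 and 0.08 on the ob/+ arrays and 0.06, 0.07 and 0.06 on the ob/ob arrays. Its sample and pool intensities were equal on every array at the precision deposited, so all 6 log2 ratios were 0.00. The fitted interval of -0.06 to 0.06 around 0.00 (adjusted p = 1) is narrower than the -0.42 to 0.42 that rounding allows. A change smaller than that was not detectable. At so dim a signal, on 1 reporter, a larger change is not excluded either.

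Alox5ap, which presents arachidonic acid to Alox5 and is known from macrophages and granulocytes, rose. Its intensities were 1.58, 1.78 and 1.22 on the ob/+ arrays and 3.53, 4.67 and 5.08 on the ob/ob arrays. The log2 ratios were -0.01, 0.20 and -0.27 in ob/+ replicates 1 to 3 and 1.05, 1.53 and 1.52 in ob/ob replicates 1 to 3. All 3 obese samples were far above all 3 lean ones, obese replicate 1 the least so.

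The log2 difference of Alox5ap was 1.40 ± 0.19 (95% interval 0.90 to 1.89, adjusted p = 0.0092), or 2.63-fold higher. Its other 3 reporters gave 1.36, 1.34 and 1.33, which is 2.51-fold to 2.56-fold, each past the threshold among reporters (20.9% of all reporters passed). These reporters read the same 6 RNA samples and are not further replicates. The call remained when each array was left out (adjusted p from 0.0116 to 0.0442), which did not hold for Ptgs1 or Ltc4s. Quantile normalization ended it, at 0.99 (adjusted p = 0.104).

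Ltc4s, which joins leukotriene A to glutathione, rose by a smaller amount. Its intensities were 0.52, 0.47 and 0.37 on the ob/+ arrays and 0.64, 0.55 and 0.66 on the ob/ob arrays. The log2 ratios were 0.12, 0.06 and -0.22 in ob/+ replicates 1 to 3 and 0.64, 0.43 and 0.62 in ob/ob replicates 1 to 3. The groups did not overlap, with lean replicate 3 the lowest and obese replicate 2 the nearest to the lean samples. The log2 difference was 0.57 ± 0.11 (95% interval 0.28 to 0.87, adjusted p = 0.0244), or 1.49-fold. The call was lost without lean replicate 1 or 2 and without obese replicate 1 or 3 (adjusted p from 0.0512 to 0.0902).

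Lta4h, the hydrolase that makes leukotriene B and is expressed in most cells, had nearly the same level in both groups. Its intensities were 1.92, 1.82 and 1.66 on the ob/+ arrays and 1.47, 1.84 and 1.79 on the ob/ob arrays, and its log2 ratios were 0.17, 0.02 and -0.09 against 0.04, 0.25 and 0.07. The groups overlapped. The log2 difference was 0.09 ± 0.09 (95% interval -0.15 to 0.33, adjusted p = 0.528). This interval overlaps that of Ltc4s, 0.28 to 0.87, and the difference between the genes was not tested.

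Macrophage markers were set beside Alox5ap, Ltc4s and Hpgds. All 10 macrophage markers changed, 9 higher and 1 lower in ob/ob, and their summed intensity was 49.0 to 54.2 on the ob/+ arrays and 97.4 to 179 on the ob/ob arrays. Adgre1, a macrophage surface receptor, had log2 ratios of 1.91, 3.18 and 3.04 in ob/ob replicates 1 to 3, and Itgax, the CD11c integrin, had 2.38, 3.27 and 3.36. Obese replicate 1 was the lowest of the obese samples for both, as it was for Alox5ap and Hpgds but not for Ltc4s, where it was the highest. The lower marker, Cd163, differed by -0.95 on the log2 scale, with -0.94, -0.82 and -1.12 in ob/ob replicates 1 to 3. No macrophage marker had a mean intensity of 0.1 or less. Their part in the Alox5ap, Ltc4s and Hpgds values was not tested.

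Ptgds and Ptgs2 were set beside the epididymal and ductal epithelium list. Of its 13 members 8 were lower in ob/ob and none higher, the other 5 did not pass, and the median log2 difference was -3.22. Mean intensity was 0.1 or less for 3 of the 13, and at 0 for none. Adam7, an epididymal membrane protein, had log2 ratios of -3.12, 1.46 and -2.54 in ob/+ replicates 1 to 3 and -3.62, -3.92 and -3.99 in ob/ob replicates 1 to 3. As for Ptgds, lean replicate 2 was the only sample above the pool, and Adam7 did not pass the test (adjusted p = 0.246). Crisp1, a secreted epididymal protein, had -1.40, 0.91 and -0.06 in ob/+ and -7.28, -7.24 and -7.24 in ob/ob, again with lean replicate 2 highest. The list did not share this order: among the lean samples 5 markers were highest in replicate 2, 6 in replicate 3 and 1 in replicate 1, and 1 was tied. Of the 8 that were lower in ob/ob, 4 were highest in lean replicate 2 and 4 in lean replicate 3. Ptgs2, unlike Adam7 and Crisp1, was lowest of the lean samples in replicate 2, at -3.85 and near its obese ratios. Adgrg2, a receptor of the efferent ducts and epididymis chosen after its values were seen, had -0.28, -0.34 and 0.45 in ob/+. It was also lowest in lean replicate 2, as were some other markers, but stood far above its ob/ob ratios of -4.52, -5.15 and -5.22. The part of this epithelium in the Ptgds and Ptgs2 values was not tested, nor was its part in Ptgs1 and the other genes lower in ob/ob.

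**Figure D3:**
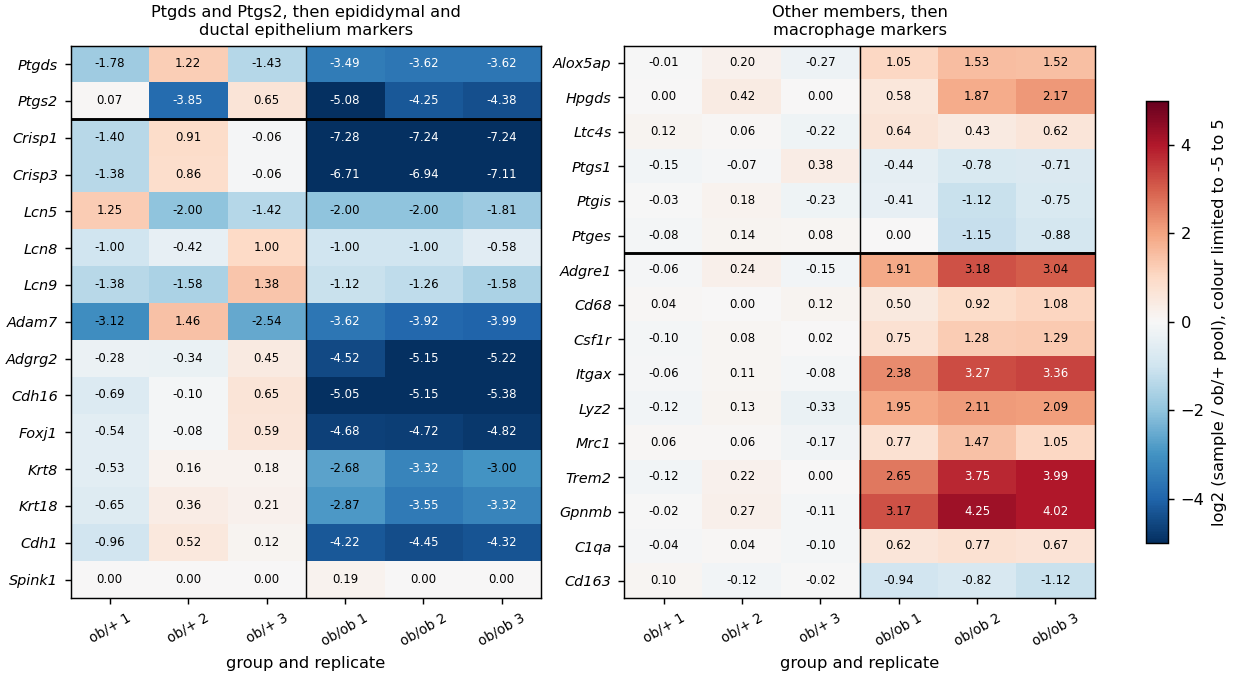
Heat maps of log2 ratio of sample over pool for each replicate, with the value printed in each cell and colour limited to -5 to 5. The left panel sets Ptgds and Ptgs2 above 13 epithelium markers, of which 8 were lower in ob/ob; the right panel sets the other members that varied above 10 macrophage markers, of which 9 were higher.

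The remaining marker lists changed less uniformly. Of 8 mast cell markers 3 were lower in ob/ob and none higher, with summed intensities of 3.09 to 3.79 in ob/+ and 1.69 to 1.90 in ob/ob, although 4 of them had mean intensities of 0.1 or less. Mast cells are a known source of Hpgds and Ltc4s, and the mast cell proteases Cma1 and Tpsb2 differed by -0.59 and -0.34 in log2 terms (adjusted p = 0.00221 and 0.00705). The other lower marker, Hdc, differed most, by -2.06 (log2, adjusted p = 0.00648). Its mean intensity was 1.29 in ob/+ and 0.287 in ob/ob, a large part of the fall in the sum. Of 7 measured neutrophil markers, from cells known to express Alox5ap, 1 was higher and 2 lower, with a median log2 difference of -0.46. The sums were 1.41 to 2.30 in ob/+ and 4.79 to 9.06 in ob/ob, and S100a8 alone, the marker that was higher, made up 3.91, 8.18 and 6.26 on the ob/ob arrays. None of 7 lymphocyte markers and none of 7 endothelial markers passed in limma, 0 of either also at an unadjusted p under 0.05, and the endothelial sums were 9.13 to 11.4 in ob/+ and 7.86 to 9.51 in ob/ob. Among 5 markers of platelets, which use Ptgs1, Itga2b was lower at -0.93 (log2, adjusted p = 0.0114) and the other 4 did not pass. The platelet sums, at most 7.08 in ob/+ and at least 7.62 in ob/ob, were mostly Pf4, which gave 0.90 and did not pass (adjusted p = 0.0759). Mean intensity was 0.1 or less for 4 lymphocyte, 3 neutrophil, 3 platelet and 0 endothelial markers. Rounding can hide a change in markers that dim. Of 7 fibroblast and progenitor markers 5 were lower and 1 higher, and 6 of them with values on every array summed to 59.2 to 65.5 in ob/+ and 36.1 to 50.6 in ob/ob. Of 7 measured adipocyte markers 3 were lower and 1, Lep, higher. Of 6 mesothelial markers 2 were lower, with sums of 13.2 to 16.2 in ob/+ and 4.55 to 9.67 in ob/ob. The part of these lists in the Ptgs1, Ptgis, Ptges, Hpgds, Ltc4s and Alox5ap values was not tested.

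Other genes of the pathway were followed through 62 symbols in 6 lists, of which 60 were measured. In ob/ob 16 were higher, 10 lower and 34 did not pass, which is 43.3% called against 26.6% of all genes, with a median log2 difference of 0.06. Dim genes were fewer here: 15 of the 60 had mean intensities of 0.1 or less, against 9256 of all 25729 genes. Above that intensity 35.1% of all genes were called. Leaving out each array in turn kept 13 of the 26 calls in every fit.

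**Figure D4:**
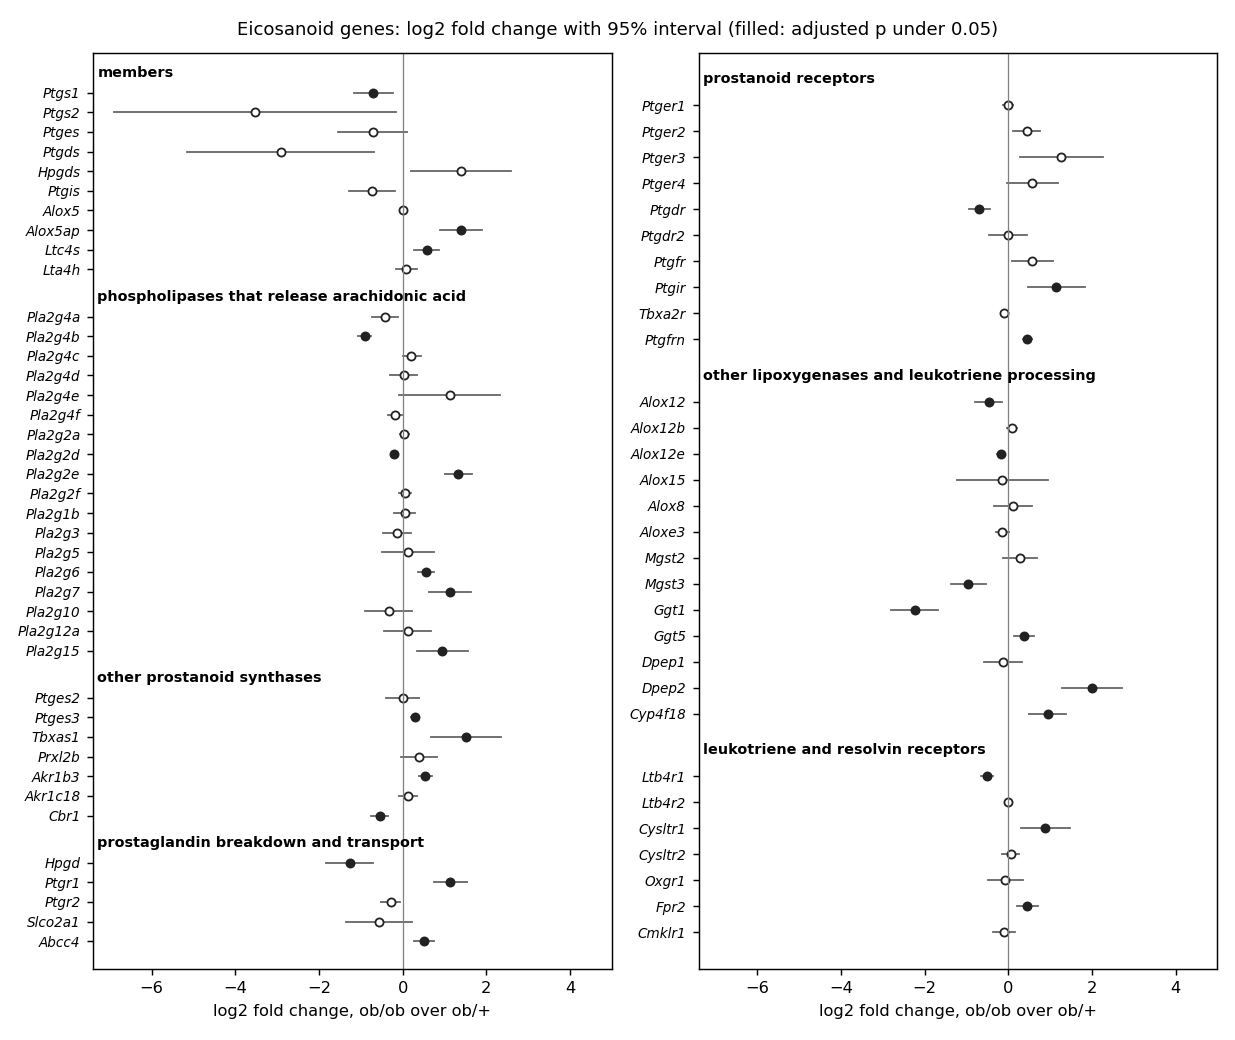
Log2 fold change, ob/ob over ob/+ (horizontal axis), with its 95% interval from limma for the 10 members and the 60 other measured pathway genes, grouped by role; filled points have an adjusted p under 0.05. Among the members the interval of Alox5ap, 0.90 to 1.89, is clear of 0, while those of Ptgs2 and Ptgds are wide, from -6.91 to -0.16 and from -5.15 to -0.69.

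Among the listed phospholipases, 4 of 18 measured were higher and 2 lower. Whether each of them supplies arachidonic acid to the members was not measured. The secreted Pla2g2e rose by 1.33 ± 0.13 (log2, SE, adjusted p = 0.00435), with obese log2 ratios of 1.50, 1.30 and 1.30 and lean ratios of 0.02, 0.25 and -0.17. The calcium-independent Pla2g6 rose by 0.55 ± 0.07 (adjusted p = 0.00906). The cytosolic Pla2g4b fell by 0.91 on the log2 scale (SE 0.06, adjusted p = 0.00239), while its second reporter gave -0.21. The secreted Pla2g2d, which was dim, gave -0.21 ± 0.02 (adjusted p = 0.00551), and rounding allows -0.62 to 0.19. Pla2g4a, the cytosolic phospholipase that supplies most arachidonic acid for signalling, gave -0.43 ± 0.12 and did not pass (adjusted p = 0.0595).

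Of 7 other prostanoid synthases 3 were higher and 1 lower. Tbxas1, the thromboxane synthase known from platelets and macrophages, rose by 1.52 ± 0.32 (adjusted p = 0.0285), with log2 ratios of 0.83, 1.92 and 1.85 in ob/ob replicates 1 to 3 and values between -0.04 and 0.06 in ob/+. Its lowest obese value was again in replicate 1, and 1 of the 6 fits with an array left out called it. Akr1b3, an aldose reductase that can make prostaglandin F, rose by 0.53 ± 0.06 (adjusted p = 0.00618), and the cytosolic synthase Ptges3 rose by 0.29 ± 0.03 (adjusted p = 0.00549). The carbonyl reductase Cbr1 fell by 0.54 on the log2 scale (SE 0.08, adjusted p = 0.0112).

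Among 5 genes of prostaglandin breakdown and transport 2 were higher and 1 lower. Hpgd, the dehydrogenase that inactivates prostaglandin E, fell by 1.26 on the log2 scale (SE 0.22, adjusted p = 0.0164), with ratios of -1.61, -0.96 and -1.08 in ob/ob and 0.03, -0.17 and 0.28 in ob/+. A dimmer second reporter of Hpgd gave 0.03 ± 0.06, so the reporters disagree, and the call held in 3 of the 6 fits with an array left out. Ptgr1, which inactivates leukotriene B and reduces prostaglandin metabolites, rose by 1.14 ± 0.15 (adjusted p = 0.00894). The exporter Abcc4 rose by 0.51 ± 0.09 (adjusted p = 0.0183), a call that 2 of those 6 fits kept.

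Of 10 genes listed as prostanoid receptors 2 were higher and 1 lower. Ptgir, the prostacyclin receptor, rose by 1.15 ± 0.26 (adjusted p = 0.0345), although 1 of the 6 fits with an array left out called it, and the receptor-associated protein Ptgfrn rose by 0.46 ± 0.04 (adjusted p = 0.00365). The prostaglandin D receptor Ptgdr, which was dim, gave -0.69 ± 0.10 (adjusted p = 0.0105), and rounding allows -1.68 to 0.24. Ptger3, the receptor through which prostaglandin E restrains lipolysis in fat cells, gave 1.27 ± 0.38 and did not pass (adjusted p = 0.0709). Its log2 ratios were 1.72, 0.75 and 1.17 in ob/ob and -0.15, 0.53 and -0.54 in ob/+, with no overlap.

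Of 13 other lipoxygenases and leukotriene-processing genes 3 were higher and 4 lower. Transferases and dipeptidases act one after the other on cysteinyl leukotrienes. The transferase Ggt1 fell by 2.24 on the log2 scale (SE 0.22, adjusted p = 0.00445). It read 0.03 on every ob/ob array, and rounding allows -2.64 to -1.88. Its log2 ratios were -0.42, -0.18 and 0.29 in ob/+ replicates 1 to 3. The part of the epididymal and ductal epithelium in its values was not tested. The dipeptidase Dpep2 rose by 1.99 ± 0.28 (adjusted p = 0.00964). The calls of Ggt1 and Dpep2 held in all 6 fits with an array left out. The brighter transferase Ggt5 rose by 0.37 ± 0.09 (adjusted p = 0.045), a call that 1 of those 6 fits kept. The dipeptidase Dpep1 gave -0.12 ± 0.17 and did not pass (adjusted p = 0.657). The glutathione transferase Mgst3 fell by 0.96 on the log2 scale (SE 0.16, adjusted p = 0.0153), a second reporter giving -0.80 and the dimmest 0.10, and Cyp4f18, which inactivates leukotriene B in mice, rose by 0.94 ± 0.17 (adjusted p = 0.0182) at a dim signal. Of those 6 fits, 2 kept the call of Mgst3 and 3 that of Cyp4f18.

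Of 7 leukotriene and resolvin receptors 2 were higher and 1 lower. The leukotriene B receptor Ltb4r1 fell by 0.51 on the log2 scale (SE 0.06, adjusted p = 0.00619) and was called in all 6 fits with an array left out. The formyl peptide receptor Fpr2, which also binds lipoxin, rose by 0.46 ± 0.10 (adjusted p = 0.0269) and the cysteinyl leukotriene receptor Cysltr1 rose by 0.89 ± 0.23 (adjusted p = 0.0464). Each of these was called in 1 of the 6 fits.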

How the data were processed

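Adipose RNA of 3 ob/ob and 3 ob/+ samples was amplified and hybridised against an ob/+ pool, 1 two-colour array per sample, per the labels. Per the submitters' processing notes, Agilent Feature Extraction 8.5.1.1 read the arrays. The authors deposited both channels as linear intensity, and the sources used here do not state how it was normalized. The deposited series matrix holds log10 ratios, which equal the intensity ratios within 0.02 log2 at 100.0% of reporters and carry the replicate numbers. Each deposited p-value compares the channels of 1 array and the test behind it is not stated either. In that table the controls controls are called wt, and the design text speaks of db/db islets, where the labels give ob/+ and adipose tissue. The labels were followed. All columns of sample values were assigned, leaving 0 unassigned.

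Symbols came from the table, 3147 of 30162 updated through RefSeq. Log2 of sample over pool was fitted by lmFit and eBayes of limma 3.58.1 (R 4.3.3, prior degrees of freedom 0.86) for 39407 reporters, as ob/ob minus ob/+, two-sided. Reporters needed values on at least 2 arrays per group. Each gene took the values of its brightest reporter, and p-values were adjusted by Benjamini-Hochberg over 25729 genes at 0.05. No pseudocount was used. The fit was tested on simulated data. The number of arrays limits the precision.

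The members, pathway lists and marker lists were chosen with earlier results of these data known. The text names all 10 members, in each pathway list up to 4 called genes with the lowest p plus Pla2g4a, Hpgd, Ptger3 and Tbxas1, and up to 2 genes of a marker list, plus Adgrg2, chosen after its values were seen. Ggt5, Dpep1, Hdc and Cd163 were also added after their values were seen. The fit was repeated with quantile normalization, with the sample channel alone, on the series matrix, without dim reporters, with a trended and robust prior, with array weights, with the replicate number as a block, without each array, with the mean or dimmest reporter of a gene, and at stricter thresholds. Rounding bounds moved every intensity by 0.005. Motifs were searched in RefSeq promoters. Figures were drawn with Python 3.11.15 and matplotlib 3.10.9.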

Additional observations from a re-analysis of the deposited data

How the results depend on the processing

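The 2 members higher and 1 lower in ob/ob, the 6840 genes called over all genes and the 26 other pathway genes called became 0, 0, 719 and 1 with quantile normalization of the ratios. They became 1, 0, 1951 and 8 when a 2-fold change was also required, and 1, 0, 2491 and 11 at an adjusted p under 0.01. At counts of 0 the members past an unadjusted p of 0.05 in limma were 1 higher and 0 lower with quantile normalization. Members lower in ob/ob numbered 2 with the sample channel alone, 3 without the dimmest quartile of reporters (with 7297 genes and 28 other pathway genes called), 4 without reporters of mean intensity 0.1 or less, 3 with a trended and robust prior, 2 with array weights and 0 with the dimmest reporter of a gene, where 4 were lower at an unadjusted p under 0.05. Leaving out each array in turn gave 1 to 2 members higher, 0 to 2 lower, 3721 to 5843 genes and 14 to 21 other pathway genes. The fewest genes came without obese replicate 3 (3721), then without lean replicate 1 (3874), lean replicate 3 (4071) and obese replicate 2 (4540). The cause of these shifts was not tested. The fits with an array left out had fewer arrays, and those without dim reporters had fewer genes. No member changed sign when called. Under quantile normalization Ptgs2 stood at -1.84 and Ptgds at -1.08.

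Samples with the same replicate number in the labels showed no clear shared deviation. The correlation of deviations between same-numbered samples was 0.0617, -0.0624 and 0.00346 over 39224 reporters. Between samples of different numbers it was -0.0933 to 0.103. So few samples cannot settle whether the numbers pair them. With a replicate block 1 member was higher, 0 lower, 3620 genes and 11 other pathway genes were called, and in limma 3 members were higher and 2 lower at an unadjusted p under 0.05. Alox5ap kept its call, while Ptgs1 and Ltc4s lost theirs (adjusted p = 0.126 and 0.08).

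With 3 arrays per group and intensities in steps of 0.01, a difference in Alox5, Hpgds or Ptgs2 is read only within the rounding bounds given above, and 42.0% of all intensities lay under 0.1.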

Other observations

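The authors' deposited table gives a p-value for each array that sets the sample against the pool, and the test behind it is not stated. For Ptgs2 on the 3 ob/+ arrays the authors' deposited table gives 0.79, 2.61e-34 and 0.000249, in the order of the intensities 0.44, 0.03 and 0.66. For Ptgds on the 3 ob/+ arrays the authors' deposited table gives 1.96e-11, 2.18e-07 and 1.82e-09, so each lean sample differed from the lean pool by that test. These values compare channels within an array and carry no spread between samples.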
